A study of Mus musculus with 11 samples.

Results

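The insulin-like growth factor (IGF) genes examined here were Igf1, its receptor gene Igf1r, the IGF2 receptor gene Igf2r and the IGF-binding protein genes Igfbp2, Igfbp3, Igfbp4, Igfbp5, Igfbp6 and Igfbp7. They were taken by symbol, and all 9 were found among the 28222 genes of the count table. RNA came from mouse mesenchymal stem cells (MSCs), stromal cells that can form bone, fat and cartilage, and all cells were grown at 2% oxygen in serum-containing medium. There were 11 libraries. Batch A held 4 libraries from young mice of 3 to 5 months, batch B held 2 young libraries and 2 old libraries (mice aged 18 to 22 months), and batch C held 3 old libraries. No genetic change or drug was named for any group, and strain, sex and the number of animals behind a library are not given in the sources used here. Nothing states that the libraries of a group came from separate animals, so that p-values measure the spread between these libraries only. Age could be separated from batch only within batch B.

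IGF1 is a secreted growth factor that bone cells make under the control of growth hormone and parathyroid hormone. It binds the tyrosine kinase IGF1R, which signals through insulin receptor substrates to PI3K, AKT and mTOR and keeps FOXO factors out of the nucleus. IGF2R has no kinase activity, and carries IGF2 and lysosomal enzymes into the cell. Most IGF outside the cell is held by IGF-binding proteins, from which it can be released by proteases such as pappalysins.

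Total counts ranged from 11969336 to 20315934 per library, and the 9 genes had between 137 and 94367 counts in each library, so that all of them were well above the smallest level regarded as detectable (3 counts, or 0.148 to 0.251 CPM, the count scaled to library size). The 9 MSC markers had a summed level of 3115 to 3737 CPM over all libraries. The 5 cartilage markers summed to 2297 to 6996 CPM and the 6 mural markers to 2268 to 4472 CPM. In group means, Comp of the cartilage list was at 1738 to 4689 CPM and Acta2 of the mural list at 2201 to 3512 CPM. These sums thus rest largely on Comp and Acta2, and alone do not identify the cells. The 7 endothelial markers had a summed level of 2.60 to 10.7 CPM, of which Tek reached 8.56 and Vwf 1.18 CPM, while Pecam1 and Cdh5 were at no more than 0.59 CPM. The macrophage and leukocyte list of 13 genes was present in every library, at 789 to 1801 CPM in young batch A, 431 and 910 CPM in young batch B, 908 and 1279 CPM in old batch B and 172 to 204 CPM in old libraries of batch C. In these bulk libraries, fewer cells of a type and less RNA per cell cannot be told apart.

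Levels of different genes were compared as CPM per kilobase of the longest annotated transcript. Igfbp4 was the most abundant of the 9 in batches A and B, with means of 1419 CPM per kb in young batch A, 933 in young batch B and 977 in old MSCs of batch B. Igfbp2 followed, at 535 CPM per kb in young batch A, 346 in young batch B and 368 in old MSCs of batch B. In old MSCs of batch C Igfbp2 had a mean of 980 and Igfbp4 a mean of 941 CPM per kb, with ranges that overlapped. Igfbp6, Igfbp5 and Igfbp7 formed a middle range, from 108 CPM per kb for Igfbp5 in old batch C to 327 for Igfbp6 in young MSCs of batch B. In the order of means, the neighbours Igfbp7 and Igfbp5 overlapped in young batch A and old libraries of batch B, Igfbp2 and Igfbp6 in young batch B and Igfbp6 and Igfbp5 in old libraries of batch C.

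Igf1, both receptor genes and Igfbp3 were the lowest, between 5.26 and 28.2 CPM per kb. Igf1 stood above Igf2r, Igf1r and Igfbp3 without overlap between adjacent means in batches A and B. In old libraries of batch C Igf1 had a mean of 13.3 CPM per kb, and Igf2r (15.1), Igf1r (13.4) and Igf1 overlapped with their neighbours. Per kb of the longest transcript, the ligand transcript was thus below those of Igfbp2, Igfbp4, Igfbp5, Igfbp6 and Igfbp7 in every library. In CPM without the length, Igf1 was above Igfbp7 in young batch A (170 to 224 against 130 to 164 CPM) and below it in the other groups. The neighbours Igf2r, Igf1r and Igfbp3 also overlapped in both groups of young libraries, but not in old libraries of batch B. Summed over the 6 binding protein genes, the level was 2422 to 2561 CPM per kb in young batch A, 1924 and 2059 in young batch B, 1930 and 1988 in old batch B and 2103 to 2541 in old libraries of batch C.

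**Figure D1:**
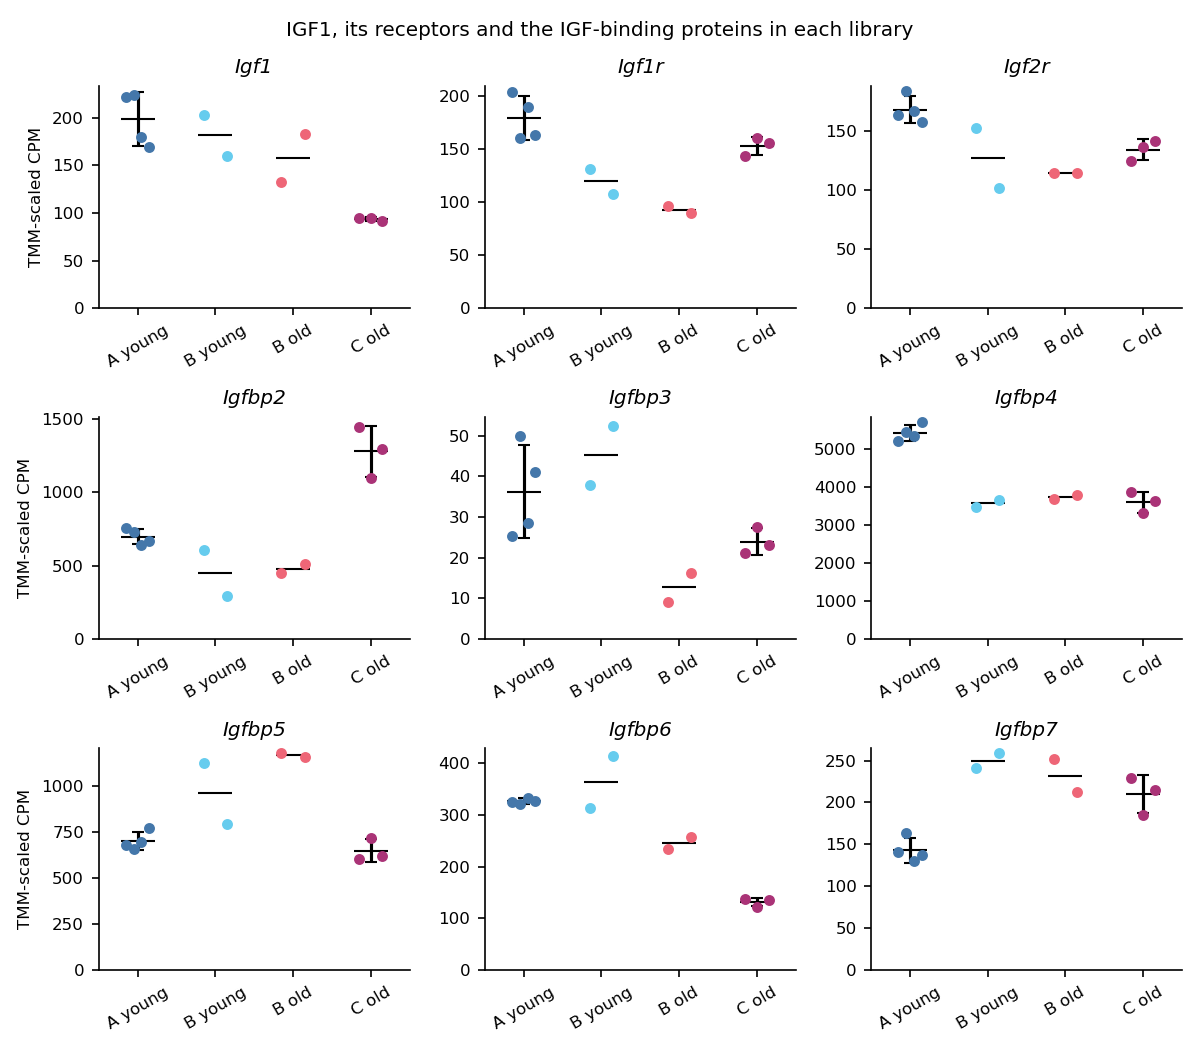
Level of each gene in every library, as CPM scaled with TMM factors, on linear axes that start at 0. Points are libraries, horizontal lines are group means and error bars are the SD (drawn for young batch A, n = 4, and old batch C, n = 3). Igfbp3 and Igfbp6 of old libraries of batch B lie below both young libraries of batch B, and Igfbp2 is highest in old libraries of batch C.

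The first comparison asked which of the genes differed between old and young MSCs with batch in the model, so that batch B gave the age coefficient and the spread was estimated over the 11 libraries. Igfbp3 and Igfbp6 were lower in old MSCs, and the other 7 genes did not pass the threshold. By the quasi-likelihood F-test of edgeR, over all 16132 genes, 2.23% passed in either direction, 0.694% were higher and 1.54% were lower. This share rested on single libraries of batch B, since it was 0.505% without batch B old replicate 1, where none of the 9 genes passed (3 at an unadjusted edgeR p under 0.05), and 12% without batch B young replicate 2, where 4 passed. The median log2 fold change of the 9 genes was −0.16, compared with 0.0044 over all genes tested. In batch B, both old libraries lay below both young libraries for 3 of the 9 genes, against 20.6% of all genes, and above them for 2, against 19.2% (39.7% in all).

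Igfbp3 (ENSMUSG00000020427, GRCm38 chromosome 11, 7206086 to 7213923, minus strand) encodes the binding protein that carries most circulating IGF together with the acid-labile subunit. Igfbp3 was at 37.9 and 52.5 CPM in young batch B and at 9.22 and 16.2 CPM in old libraries of batch B. Both old libraries lay below both young ones, and the gene was the least abundant of the 9 in old MSCs of batch B. Igfbp3 fell by 1.82 on the log2 scale in old MSCs (SE 0.30, adjusted edgeR p 0.00470), to 0.282 of the young level, and 2.73% of all tested genes had a log2 fold change of at least that size. Without batch B old replicate 1 the log2 fold change was −1.47 and the call was lost (adjusted edgeR p 0.0758). In young libraries of batch A Igfbp3 was at 25.4, 28.5, 41.1 and 50.0 CPM, and in old libraries of batch C at 21.1, 23.1 and 27.7 CPM, so that these groups overlapped. The log2 fold change of old batch C against young MSCs of batch A was −0.53 (SE 0.20, adjusted edgeR p 0.0337), where age and batch cannot be told apart. Within old MSCs Igfbp3 was higher in batch C than in batch B (0.91, SE 0.19, adjusted edgeR p 0.00136).

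Igfbp6 (ENSMUSG00000023046, GRCm38 chromosome 15, 102144362 to 102149511, plus strand) encodes a binding protein that prefers IGF2 over IGF1. Igfbp6 was at 312 and 414 CPM in young batch B and at 235 and 256 CPM in old libraries of batch B, without overlap. It fell by 0.57 on the log2 scale (SE 0.13, adjusted edgeR p 0.0278), to 0.676 of the young level. When single libraries were left out, the log2 fold change ranged from −0.76 without batch B young replicate 1 to −0.35 without batch B young replicate 2. The call was lost without batch B old replicate 1 or 2, with adjusted edgeR p-values of 0.303 and 0.0798. It was also lost without any one of the batch C libraries (adjusted edgeR p 0.0562 to 0.0676), after scaling by total counts (0.0672) and in batch B alone (0.255).

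For Igfbp6, young libraries of batch A were at 321, 324, 327 and 333 CPM, and old libraries of batch C were at 123, 136 and 137 CPM, the lowest of all groups. Igfbp6 was lower in batch C than in batch B within old MSCs, with a log2 fold change of −0.90 (SE 0.07, adjusted edgeR p 5.02e-07). In young MSCs the difference of batch B against A did not pass the threshold (0.18, SE 0.14, adjusted edgeR p 0.385). Each of the 5 old libraries had less Igfbp6 than each of the 6 young ones, and old MSCs of batches B and C also differed. Batch A held only young and batch C only old libraries, so that age and batch cannot be told apart between them. There 63.8% of all genes passed in edgeR's test. The share of all genes separated in this way over the batches was not determined.

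The promoters of Igfbp3 and Igfbp6 are shown because these were the genes of the set that were lower in old MSCs. Each sequence is the 250 bases before the RefSeq start on GRCm38.p6, read 5′ to 3′ on the strand of the gene. The positions are chr11:7213924-7214173 (minus strand) for Igfbp3 and chr15:102143936-102144185 (plus strand) for Igfbp6. Capitals mark matches on either strand to any of 5 motifs. The first was the promoter element known as the TATA box, searched as TATAAA. The second was the GC box bound by SP factors, searched as GGGCGG. The third was the element bound by NF-Y, searched as CCAAT. The others were the core of the site bound by hypoxia-inducible factors (HIF core), searched as ACGTG, and the forkhead motif bound by FOXO factors, searched as TGTTTAC. Neither strand of any motif contains another motif.
Igfbp3: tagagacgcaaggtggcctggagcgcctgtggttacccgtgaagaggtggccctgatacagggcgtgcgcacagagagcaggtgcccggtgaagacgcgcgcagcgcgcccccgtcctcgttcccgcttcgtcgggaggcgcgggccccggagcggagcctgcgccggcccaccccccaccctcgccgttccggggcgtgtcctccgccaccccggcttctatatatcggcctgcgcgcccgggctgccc
Igfbp6: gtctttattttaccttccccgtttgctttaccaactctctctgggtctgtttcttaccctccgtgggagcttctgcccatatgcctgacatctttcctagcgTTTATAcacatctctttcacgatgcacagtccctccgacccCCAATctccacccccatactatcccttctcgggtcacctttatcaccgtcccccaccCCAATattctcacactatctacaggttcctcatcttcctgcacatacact

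The Igfbp3 window held 73.2% G and C and no exact match to the motifs. Near its 3′ end it holds TATATAT, a variant that the search for TATAAA did not count. The Igfbp6 window held 49.6% G and C, with 1 match to TATAAA, on the opposite strand, and 2 elements of the NF-Y type. The search therefore does not settle which window has a TATA box. Of 32851 promoter windows of the same length, 12.37% held a TATA box, 33.85% an NF-Y element and 32.74% a GC box, so that such matches are common. The forkhead motif occurred in 3.17% of windows and in none of the 9 genes. The HIF core, searched as ACGTG only, occurred in 16.57% of windows, and in those of Igf2r, Igfbp2 and Igfbp7. The variant GCGTG, which the Igfbp3 window holds, was not counted.

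In batch B, other markers moved in the same comparison. The summed level of 5 cartilage markers was 4367 and 6176 CPM in young and 2297 and 2566 CPM in old libraries, with 4 genes lower and 1 higher. Comp, a cartilage matrix gene, was at 3653 and 4911 CPM in young and 1656 and 1820 CPM in old libraries. It was the only one of them that passed (log2 fold change −1.30, SE 0.20, adjusted edgeR p 0.00287). Pdgfra, the stromal receptor CD140a, was lower in old MSCs as well (−0.86, SE 0.15, adjusted edgeR p 0.00590), and 13 of 13 macrophage markers had a higher value in old MSCs, although 0 of them passed in edgeR's test (5 at an unadjusted p-value under 0.05). Nt5e, the MSC marker CD73, was also lower (−1.34, SE 0.25, adjusted edgeR p 0.00932). Alpl, the alkaline phosphatase of osteoblasts, was higher (0.98, SE 0.15, adjusted edgeR p 0.00287), as was Des, the muscle filament gene of the mural list (2.15, SE 0.33, adjusted edgeR p 0.00283). Des was low, at 0.61 to 4.11 CPM in batch B. Of the MSC list, 7 of 9 genes had a lower value and 2 passed. Of the osteoblast list, 6 of 8 had a higher value and 1 passed. The mural list had 4 genes higher and 2 lower, and 1 passed. The part of these markers in the levels of Igfbp3 and Igfbp6 was not tested.

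The ligand gene Igf1 (ENSMUSG00000020053, GRCm38 chromosome 10, 87858265 to 87937042, plus strand) did not pass the threshold with batch in the model. Igf1 was at 160 and 203 CPM in young batch B and at 133 and 182 CPM in old libraries of batch B, and the ages overlapped. The log2 fold change was −0.20 (SE 0.16, adjusted edgeR p 0.577). The gene body holds the antisense gene Igf1os, without overlap of exons.

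Igf1 was lower in batch C than in every other library. It was at 91.5, 94.3 and 94.9 CPM there, and at 170, 180, 221 and 224 CPM in young libraries of batch A. Within old MSCs the log2 fold change of batch C against B was −0.75 (SE 0.11, adjusted edgeR p 5.67e-05). In young MSCs the value of batch B against A was −0.11 (SE 0.15, adjusted edgeR p 0.649), and those libraries overlapped. Without the batch term Igf1 was lower in old MSCs (−0.68, SE 0.19, adjusted edgeR p 0.0284), but this call was lost without any one of the batch A or batch C libraries, with adjusted edgeR p-values of 0.0510 to 0.0849.

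**Figure D2:**
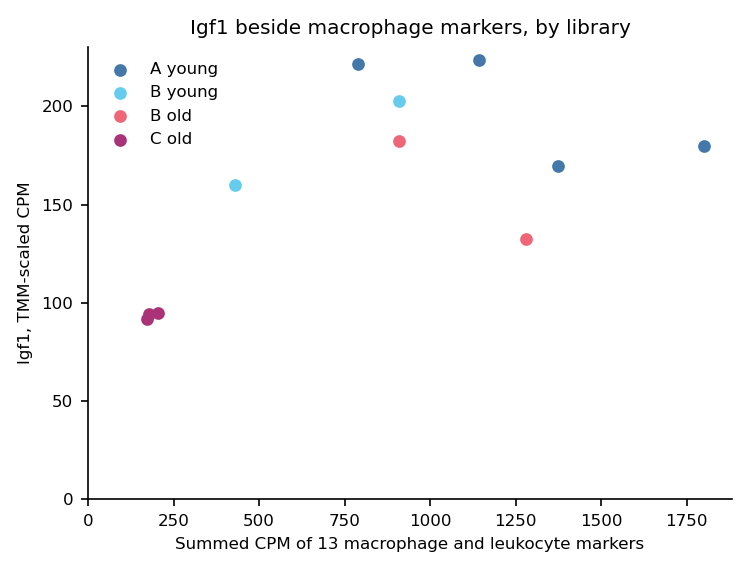
Igf1 level (vertical axis, TMM-scaled CPM) against the summed level of 13 macrophage and leukocyte markers (horizontal axis, CPM) in each of the 11 libraries, coloured by group, on linear axes that start at 0. Old libraries of batch C are lowest on both axes, and within batch A the library with the highest marker sum, at 1801 CPM, has 180 CPM of Igf1.

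Macrophages can express Igf1, and the macrophage and leukocyte list was therefore set beside it. All 13 genes of that list were lower in batch C than in old libraries of batch B (edgeR's test, 13 of 13 passing), with a median log2 fold change of −2.71 against −0.75 for Igf1. Of all genes tested there, 32.6% passed as lower and 64.7% in either direction. Within batch A, replicate 1 had the lowest marker sum (789 CPM) and 221 CPM of Igf1, and replicate 3 had the highest sum (1801 CPM) and 180 CPM of Igf1. Within young batch B, replicate 1 had the higher sum (910 CPM) and the higher Igf1 level (203 CPM), and replicate 2 had 431 CPM and 160 CPM. Within old batch B, replicate 1 had the higher sum (1279 CPM) and the lower Igf1 level (133 CPM), and replicate 2 had 908 CPM and 182 CPM. The part of these cells in the difference between batches B and C was not tested.

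Igf1r (ENSMUSG00000005533, GRCm38 chromosome 7, 67952827 to 68233668, plus strand), the signalling receptor gene, was at 108 and 131 CPM in young batch B and at 89.7 and 96.2 CPM in old libraries of batch B. Both old libraries lay below both young ones, but the difference did not pass with batch in the model (log2 fold change −0.36, SE 0.13, adjusted edgeR p 0.182). It passed when batch B young replicate 2 was left out (−0.50, SE 0.14, adjusted edgeR p 0.0315). Young libraries of batch A were at 161, 163, 189 and 204 CPM and old libraries of batch C at 144, 156 and 160 CPM, so that batch B held the lowest libraries of both ages.

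Igf1r was lower in batch B than in young MSCs of batch A (−0.56, SE 0.14, adjusted edgeR p 0.0178) and higher in batch C than in old MSCs of batch B (0.72, SE 0.07, adjusted edgeR p 3.63e-06). Both calls were lost when a surface of transcript length and GC content was removed from each library, after which the log2 fold changes were −0.23 and −0.02. With a longest transcript of 11409 nt, Igf1r was the longest of the 9 genes. The call between batches B and A was also lost without batch A young replicate 3 (adjusted edgeR p 0.0582) or batch B young replicate 2 (0.145).

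Igf2r (ENSMUSG00000023830, GRCm38 chromosome 17, 12682406 to 12769664, minus strand) is an imprinted gene whose body overlaps the antisense transcript Airn without overlap of exons. Igf2r was at 102 and 153 CPM in young batch B and at 114 and 115 CPM in old libraries of batch B, so that the old libraries lay between the young ones (log2 fold change −0.16, SE 0.15, adjusted edgeR p 0.646). Without batch B young replicate 1 the value was 0.16, and without replicate 2 it was −0.42 and passed (adjusted edgeR p 0.0284). Young libraries of batch A were at 158 to 184 CPM and old libraries of batch C at 125 to 142 CPM. Within old MSCs Igf2r was higher in batch C (0.23, SE 0.07, adjusted edgeR p 0.0137), but after the length and GC correction it was lower (−0.40, SE 0.06, adjusted edgeR p 7.36e-05), so that no direction between these batches can be given. The call was also lost without batch C old replicate 3 (adjusted edgeR p 0.0579).

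Igfbp4 (ENSMUSG00000017493, GRCm38 chromosome 11, 99041244 to 99054392, plus strand) encodes a binding protein that restrains IGF action and is cleaved by pappalysin-1. Igfbp4 was at 3481 and 3665 CPM in young batch B, 3703 and 3785 CPM in old batch B and 3321, 3628 and 3865 CPM in old libraries of batch C. Old libraries of batch B lay above young batch B ones by a small margin, and old libraries of batch C overlapped with old batch B ones, with log2 fold changes of 0.07 for age with batch in the model (SE 0.12, adjusted edgeR p 0.833) and −0.06 for batch C against B in old MSCs (SE 0.08, adjusted edgeR p 0.536). Under the length and GC correction Igfbp4 was lower in batch C (−0.30, SE 0.07, adjusted edgeR p 0.00315). Young libraries of batch A stood above all others, at 5227 to 5730 CPM. Igfbp4 was lower in batch B than in young MSCs of batch A (−0.58, SE 0.14, adjusted edgeR p 0.0157), and this call was lost under the length and GC correction (−0.33, adjusted edgeR p 0.0868) and without batch A young replicate 3 or 4 (0.0578 and 0.0558).

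Igfbp2 and Igfbp5 lie next to each other on chromosome 1 with their 3′ ends facing, 5457 nt apart. IGFBP2 is a secreted binding protein of many mesenchymal and metabolic tissues, and IGFBP5 is abundant in bone matrix. Igfbp2 (ENSMUSG00000039323, GRCm38 chromosome 1, 72824503 to 72852474, plus strand) was at 609 and 295 CPM in young libraries of batch B, the widest spread of the 9 genes within a group (coefficient of variation 49.2%). Both old libraries of batch B, at 449 and 513 CPM, lay between them, and the age difference with batch in the model was 0.09 (SE 0.23, adjusted edgeR p 0.884). Without batch B young replicate 2 it was −0.34 (adjusted edgeR p 0.167).

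In old libraries of batch C Igfbp2 was at 1098, 1294 and 1449 CPM, above all other libraries. It was higher than in old MSCs of batch B by 1.41 on the log2 scale, a 2.65-fold difference (SE 0.11, adjusted edgeR p 4.92e-07), and this was the largest difference of the 9 genes between these batches. In the same comparison 6 of 6 fat cell markers had a higher value in batch C. Of these, 5 passed, against 32.1% of all genes that passed as higher and 64.7% in either direction. Their sums were 292 to 313 CPM against 92.5 and 118 CPM in old batch B, and their part in the level of Igfbp2 was not tested. Young libraries of batch A were at 642 to 759 CPM. The log2 fold change of old batch C against young MSCs of batch A was 0.93 (SE 0.10, adjusted edgeR p 3.71e-06). In young MSCs the value of batch B against A was −0.61 (SE 0.22, adjusted edgeR p 0.0707), and it passed with limma-trend, with DESeq2 and without a filter on low counts. Without batch B young replicate 1 it was −1.22 (adjusted edgeR p 0.000808).

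Igfbp5 (ENSMUSG00000026185, GRCm38 chromosome 1, 72857932 to 72874884, minus strand) was highest in batch B, at 1155 and 1174 CPM in old and 793 and 1123 CPM in young libraries. Young libraries of batch A, at 657, 676, 693 and 768 CPM, overlapped with old libraries of batch C, at 605, 620 and 717 CPM. Both old libraries of batch B lay above all others, but the age difference did not pass with batch in the model (0.28, SE 0.15, adjusted edgeR p 0.378). Igfbp5 was lower in batch C than in old MSCs of batch B (−0.85, SE 0.08, adjusted edgeR p 2.33e-06). It was higher in batch B than in young MSCs of batch A (0.48, SE 0.15, adjusted edgeR p 0.0448), which was lost with limma-trend (adjusted p 0.0513) and without any one of 5 of the 6 young libraries, the exception being batch B young replicate 2.

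The promoters of this neighbouring pair are shown because the genes differed in opposite directions between batches C and B. The windows were chosen and marked as before, at chr1:72824230-72824479 (plus strand, the first of 2 RefSeq starts) for Igfbp2 and chr1:72874866-72875115 (minus strand) for Igfbp5.
Igfbp2: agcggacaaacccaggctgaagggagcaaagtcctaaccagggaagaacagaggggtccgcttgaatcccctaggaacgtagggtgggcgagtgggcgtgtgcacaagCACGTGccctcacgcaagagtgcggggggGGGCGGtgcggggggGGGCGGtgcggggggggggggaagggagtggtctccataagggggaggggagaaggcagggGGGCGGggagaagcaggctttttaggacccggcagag
Igfbp5: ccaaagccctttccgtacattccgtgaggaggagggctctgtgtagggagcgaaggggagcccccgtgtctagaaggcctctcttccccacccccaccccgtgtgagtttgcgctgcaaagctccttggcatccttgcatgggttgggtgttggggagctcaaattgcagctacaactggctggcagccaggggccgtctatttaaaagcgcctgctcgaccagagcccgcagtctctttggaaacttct

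The Igfbp2 window held 3 GC boxes and the palindrome CACGTG, which contains the HIF core on both strands. The Igfbp5 window held no exact match to the motifs searched, and variants such as its TATTTAA were not counted. Its share of G and C was 58.8%, against 67.2% for Igfbp2.

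Igfbp7 (ENSMUSG00000036256, GRCm38 chromosome 5, 77349240 to 77408041, minus strand) encodes a related protein with low affinity for IGFs. It shares 85 nt of exon (7.03% of its exonic length) with Polr2b on the opposite strand, and reads there cannot be assigned if strand was not used. Igfbp7 was at 130, 137, 140 and 164 CPM in young libraries of batch A, below all others. Young libraries of batch B were at 241 and 259 CPM, old libraries of batch B at 213 and 252 CPM and old libraries of batch C at 185, 215 and 229 CPM. Igfbp7 was higher in batch B than in young MSCs of batch A (0.83, SE 0.13, adjusted edgeR p 0.00200), whereas the age difference with batch in the model (−0.11, SE 0.13, adjusted edgeR p 0.746) and the difference between batches C and B in old MSCs (−0.15, SE 0.10, adjusted edgeR p 0.196) did not pass. The latter passed without batch B old replicate 2 (−0.27, adjusted edgeR p 0.0167).

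**Figure D3:**
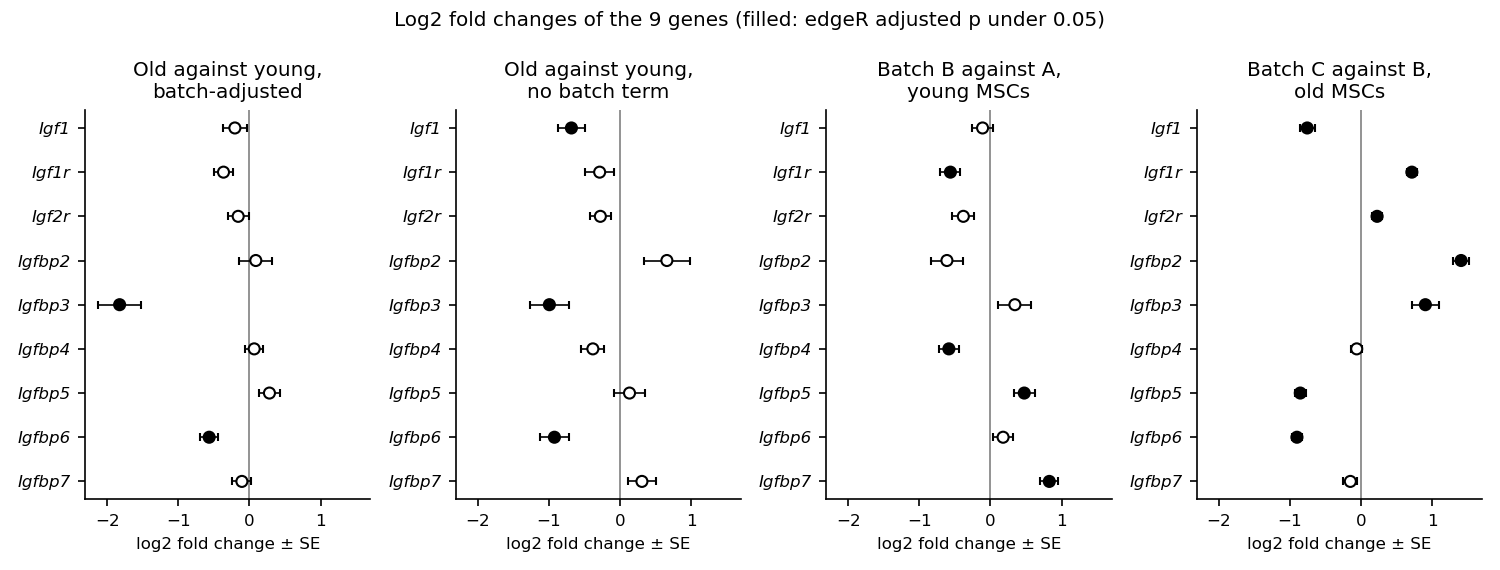
Log2 fold changes of the 9 genes in 4 fits of edgeR's quasi-likelihood test (horizontal axes), with bars for the SE. Filled points had an adjusted p-value under 0.05. Igfbp3 and Igfbp6 are filled and left of 0 in the batch-adjusted age comparison, and 7 of the 9 genes are filled between batches C and B in old MSCs.

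The other comparisons concerned differences between batches within 1 age, and age without a batch term. For batch C against B in old MSCs, 7 of the 9 genes passed, 4 higher and 3 lower in batch C, compared with 64.7% of all 15651 genes tested (32.1% higher and 32.6% lower), so that the count was close to the background. Under the length and GC correction 7 passed as well, but 2 were higher and 5 lower, with Igf1r lost and Igfbp4 gained. All libraries of batch C lay above those of batch B for 4 of the 9 genes and below them for 3, against 38.8% and 37.4% of all genes (76.3% in all). For batch B against A in young MSCs, 4 of the 9 passed, 2 in each direction, compared with 18.1% of all 14840 genes (9.39% higher and 8.71% lower). That share was 3.36% without batch B young replicate 2 and 26.5% without batch B young replicate 1, where 3 and 6 of the 9 genes passed. Libraries of batch B lay above those of batch A for 2 of the 9 genes and below them for 4, against 20.1% and 20.8% of all genes (40.9% in all). All 13 macrophage markers had a lower value in batch B in that comparison, 7 of them passed, and their part in it was not tested. Without the batch term, 3 genes were lower in old MSCs, namely Igf1, Igfbp3 (−0.99, SE 0.27, adjusted edgeR p 0.0285) and Igfbp6 (−0.92, SE 0.20, adjusted edgeR p 0.0137), and 18% of 14689 genes passed (9.33% higher and 8.65% lower). That share was between 5.16% and 6.01% without any one of the batch C libraries. The call of Igfbp3 was lost under total counts (adjusted edgeR p 0.0843) and without batch A young replicate 2 or 4 or batch C old replicate 1 or 3. These comparisons share libraries and are given side by side only.

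The share of each binding protein gene in their sum is given as a description, without a test. Igfbp4 accounted for 55.1 to 58.4% of the summed CPM per kb in young batch A, 44.1 and 49.7% in young batch B, 49.7 and 50.1% in old batch B and 39.7 to 41.2% in old libraries of batch C. Igfbp2 accounted for 39.96 to 43.6% in old libraries of batch C and for 11.7 to 23.5% in all others. Igfbp6 accounted for 4.85 to 5.25% in old libraries of batch C and for 10.9 to 19.4% elsewhere.

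**Figure D4:**
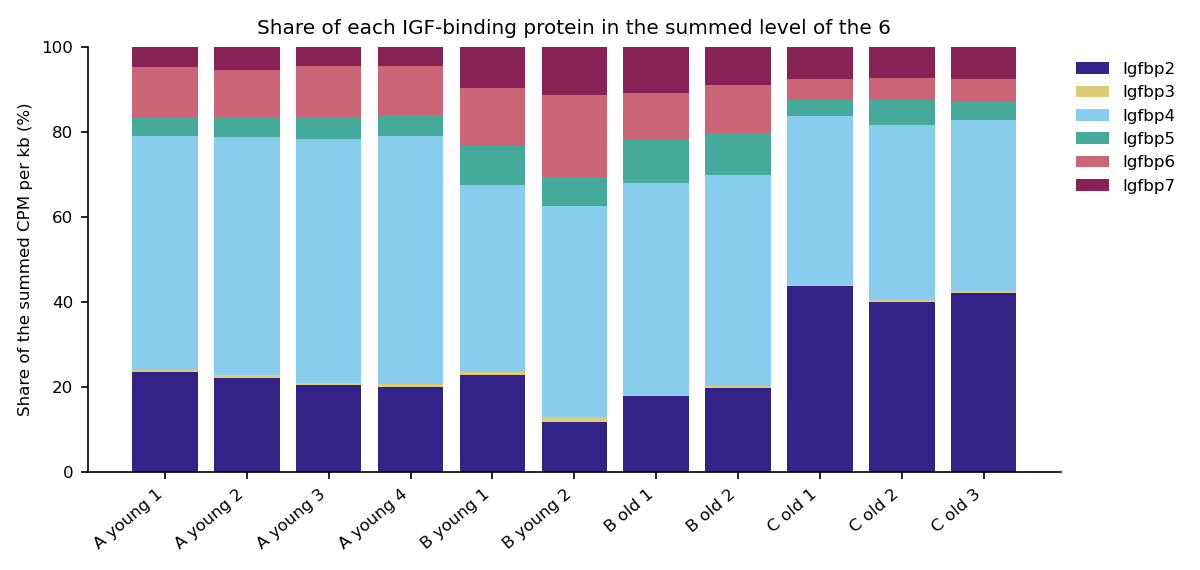
Share of each of the 6 IGF-binding protein genes in their summed CPM per kb (vertical axis, percent) in each library, grouped by batch and age. Igfbp4 is the largest part in batches A and B, and Igfbp2 (39.96 to 43.6%) is about as large as Igfbp4 in old libraries of batch C.

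Of the other genes of the IGF system, 17 had been listed, of which 16 were in the table and 14 were tested. Igfbp1 was not analysed here, and Insrr and Igfbpl1 were too low to be tested. In the batch-adjusted age comparison 2 of 14 passed, against the background of 2.23%, and both were lower in old MSCs. These were the serine proteases Htra1 and Htra3, and HTRA1 can cleave IGF-binding proteins. Whether these calls hold when single libraries are left out was not determined. Htra3 was at 78.3 and 95.3 CPM in young batch B and at 38.3 and 52.5 CPM in old libraries of batch B (log2 fold change −0.94, SE 0.16, adjusted edgeR p 0.00590). Htra1 was at 168 and 187 CPM in young batch B and at 119 and 122 CPM in old libraries of batch B (−0.56, SE 0.10, adjusted edgeR p 0.00932). Both also had lower levels in old batch C, at 93.5 to 97.1 CPM for Htra1 and 47.3 to 52.3 CPM for Htra3, than in young libraries of batch A, at 223 to 246 CPM for Htra1 and 65.0 to 85.2 CPM for Htra3. Age and batch cannot be told apart between these groups, where 63.8% of all genes passed in edgeR's test.

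Other parts of the system did not pass for age with batch in the model. Igf2, the second ligand, is imprinted and was at 58.7 and 79.5 CPM in young batch B and at 64.2 and 100.1 CPM in old libraries of batch B (0.25, SE 0.25, adjusted edgeR p 0.667), but it was at 200 to 225 CPM in old libraries of batch C (1.37, SE 0.14, adjusted edgeR p 4.39e-06 against old batch B). The growth hormone receptor gene Ghr (0.10, SE 0.16), the insulin receptor gene Insr (−0.50, SE 0.19, adjusted edgeR p 0.187) and Pappa, which encodes the protease of IGFBP4 (0.10, SE 0.15), did not pass either. Pappa2, whose product cleaves IGFBP5 and IGFBP3, had a log2 fold change of 0.87 (SE 0.26, adjusted edgeR p 0.0941), with 152 and 223 CPM in young batch B and 338 and 348 CPM in old libraries of batch B.

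Downstream of the receptors, 1 of 30 genes passed in the batch-adjusted age comparison, a share close to the 2.23% of all genes. This was Foxo1, which encodes a transcription factor that AKT holds outside the nucleus, at 22.3 and 28.3 CPM in young batch B and 15.8 and 16.8 CPM in old libraries of batch B (−0.64, SE 0.14, adjusted edgeR p 0.0251). The insulin receptor substrate genes Irs1 (−0.19, SE 0.20) and Irs2 (−0.39, SE 0.23) did not pass. The median log2 fold change of the 30 genes was −0.18, compared with 0.0044 over all genes tested, and 23 of them had a value below 0. The share of all genes below 0 was not determined.

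**Figure D5:**
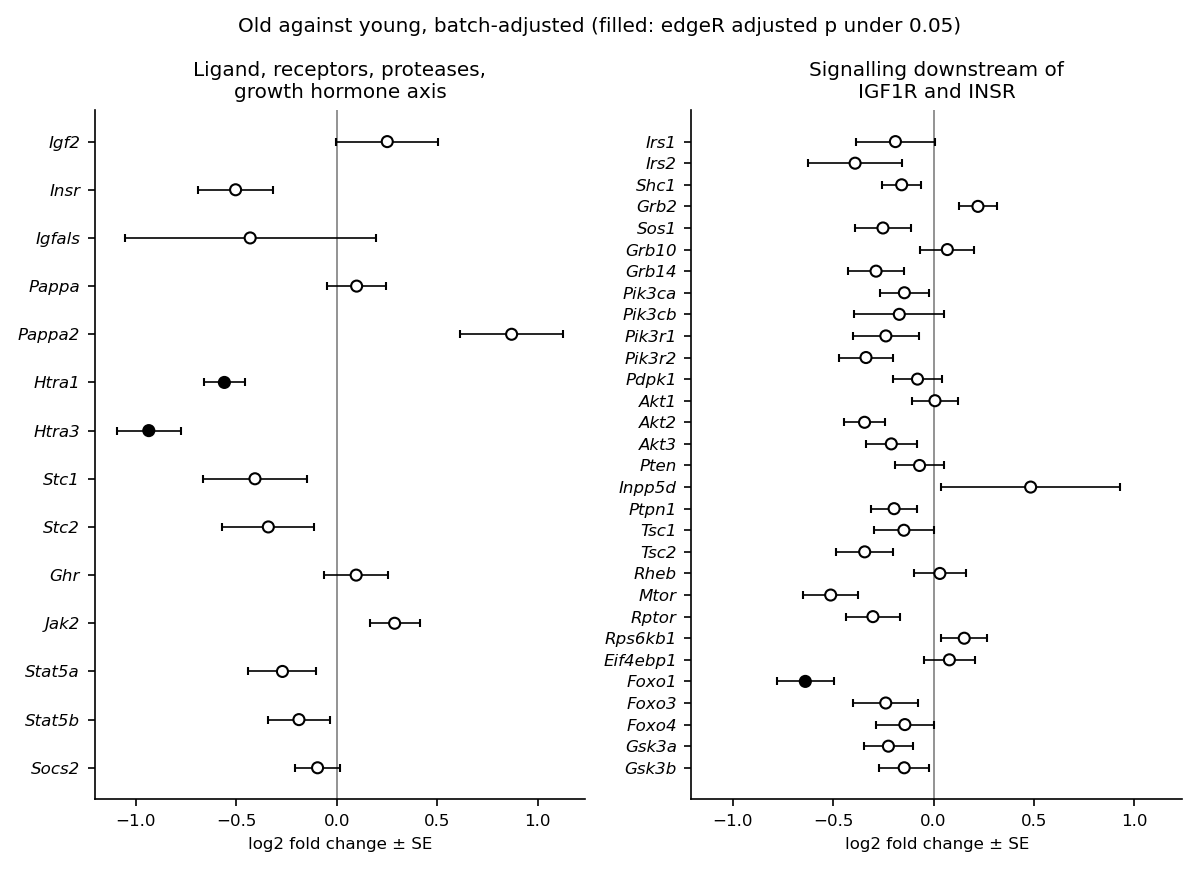
Batch-adjusted log2 fold changes of old against young MSCs (horizontal axes, bars show the SE) for 14 other genes of the IGF system (left) and 30 genes of downstream signalling (right). Htra1, Htra3 and Foxo1 are the filled points, with adjusted p-values under 0.05, and all 3 lie left of 0.

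Between batches more of these genes passed. In batch C against B old MSCs, 9 of the 14 genes were higher and 2 lower, and 12 of the 30 downstream genes were higher and 9 lower, compared with 32.1% of all genes higher and 32.6% lower. The smallest p-values belonged to Stc1, an inhibitor of pappalysins (1.64, SE 0.12), Irs2 (1.69, SE 0.15) and Igf2 among the higher genes, and to Eif4ebp1, a translation repressor under mTOR (−1.44, SE 0.07), Rheb (−0.69, SE 0.07) and Grb2 (−0.62, SE 0.06) among the lower ones. In batch B against A young MSCs, 4 of the 14 and 5 of the 30 genes passed, against 18.1% of all genes, among them Ghr (0.68, SE 0.15) and Stc1 (1.03, SE 0.26) as higher and Pappa2 (−1.24, SE 0.25), Irs2 (−0.85, SE 0.21) and Foxo1 (−0.50, SE 0.14) as lower. Without the batch term 6 of the 14 and 8 of the 30 passed for age, against 18% of all genes, led by Jak2 (0.63, SE 0.12), Rps6kb1 (0.51, SE 0.12) and Stc1 (1.37, SE 0.40) as higher and Htra1 (−1.01, SE 0.13), Htra3 (−0.75, SE 0.12) and Akt2 (−0.61, SE 0.10) as lower.

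The protein-coding genes whose log2 CPM followed each of the 9 genes most closely over the 11 libraries were taken from 13707 candidates. The libraries share batches, so that these values are descriptions without a test. Igf1 was followed by Wbp1l (Pearson r 0.99), Prpsap1 (0.98) and Carhsp1 (0.97), Igf1r by Lrrk1 (0.98), Csf1 (0.98) and Dlc1 (0.97), and Igf2r by Tbc1d5, Spred2 and Itgav (0.98 each). For the binding proteins, Igfbp2 was followed by Zfp318 (0.97), Cenpt (0.96) and Triobp (0.96), Igfbp3 by Aldh1a1 (0.96), Pmp22 (0.95) and Gas1 (0.95), and Igfbp4 by Ramp2 (0.96), Fggy (0.95) and Oxa1l (0.95). Igfbp5 had the weakest matches, with Snx10, Zfand2a and Bloc1s1 (0.91 each), whereas Igfbp6 was followed by Spef1, Dhrs7 and Tprgl (0.99 each) and Igfbp7 by Emb (0.99), Srp54a (0.95) and Kng2 (0.95).

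Among the 9 genes themselves, the highest value was that of Igf1 and Igfbp6 (r = 0.89), followed by Igf1r and Igf2r (0.81). The lowest values were those of Igfbp4 and Igfbp7 (−0.86) and of Igfbp2 and Igfbp6 (−0.79).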

How the data were processed

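Polyadenylated RNA of cultured mouse MSCs was sequenced in 11 libraries. The authors deposited raw counts, in whole numbers per Ensembl gene and library, without normalisation. Per the labels the genome build was GRCm38 (mm10). The aligner, the counter, the use of strand and the use of molecular identifiers are not given in the sources used here, and reads of overlapping genes can have been shared or lost. Libraries were grouped by the age and batch in their titles, and no column was left out. Of 28222 genes, 28179 were matched to the GENCODE M21 annotation and 43 were not. Promoter windows came from RefSeq (GRCm38.p6), in which all 9 genes were matched.

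Counts were tested in R 4.3.3 with edgeR 4.0.16 (quasi-likelihood, TMM factors, filterByExpr with a minimum count of 5, two-sided, Benjamini-Hochberg adjustment over all genes, threshold 0.05), with ~ batch + age over all libraries, ~ age, and ~ batch within each age. Each SE was the fold change divided by the root of F. Totals were multiplied by TMM factors for CPM, with a prior count of 2 before log2. Alternatives were limma-trend (limma 3.58.1), DESeq2 1.42.0, RLE factors, unscaled totals, no filter on low counts, a minimum of 10, an offset for transcript length and GC content (loess, span 0.3), leaving out each library, the replicate number as a block, batch B alone, and young batch A against old libraries of batch C alone. The main designs were tested with edgeR, limma-trend and DESeq2 on simulated data, and the other alternatives were not. The simulation for ~ age held no batch difference.

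The 9 genes, the other gene lists and the tests were chosen with earlier results of these data known. Named in addition were pathway genes past the threshold for age with batch in the model, in the other fits the 3 top-ranked by p-value per direction, Igf2, Insr, Ghr, Pappa, Irs1 and Irs2, and the 3 genes most like each of the 9. Pappa2 (for age), Comp, Nt5e, Alpl, Des, Tek and Vwf were added after their values were seen. The marker lists of osteoblasts, adipocytes, mural and erythroid cells were also summed, and ranged from 631 to 1196, 92.5 to 313, 2268 to 4472 and 0 to 3.16 CPM over all libraries. Intervals for levels near 3 counts cover counting error only. Within groups, the chi-square statistic per gene was at least 3.07 for every pair of libraries, against about 1 for repeats of a single library, and all libraries were counted as separate.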

Additional observations from a re-analysis of the deposited data

How the results depend on the processing

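The alternatives were examined gene by gene for the 9 genes only. Calls of other genes, such as Htra1, Htra3, Foxo1, Comp, Pdgfra, Nt5e, Alpl and Des, were not checked in this way. Of the alternative values of single genes, 529 kept their direction and their side of the threshold, 42 lost and 18 gained a call, and 14 changed sign. For age with batch in the model, 1 of the 9 genes (Igfbp3) passed under total counts, with the replicate block and in batch B alone, against 2.08%, 1.75% and 0.831% of all genes, and the call of Igfbp6 was lost in each (adjusted edgeR p 0.0657 with the block). It was 0 to 4 when each library was left out, against 0.505 to 12% of all genes (0 without batch B old replicate 1, with 3 at an unadjusted p-value under 0.05 in edgeR's test, and 4 without batch B young replicate 2). Without the batch term, 0 of the 9 and 0 of all genes passed with the replicate block (3 and 4074 at an unadjusted p-value under 0.05 in edgeR's test), 7 passed between young batch A and old libraries of batch C alone, close to the 63.8% of all genes, and 1 to 5 passed when each library was left out, against 5.16 to 26.9%. Between batches B and A, 2 passed under the length and GC correction (13.2% of all genes), 0 with the replicate block (4.72%, with 3 of the 9 at an unadjusted p-value under 0.05 in edgeR's test) and 1 to 6 when each library was left out (3.36 to 26.5%). Between batches C and B the count was 6 to 8, with 2 higher and 5 lower under the length and GC correction.

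The sign changed for Igf1r (−0.019), Igf2r (−0.40) and Igfbp7 (0.12) between batches C and B under the length and GC correction, for Igfbp4 (0.13) and Igfbp7 (0.046) there under total counts, and for Igfbp5 (−0.051) without the batch term between young batch A and old libraries of batch C alone. When single libraries were left out, values for age with batch in the model ranged from −0.45 to 0.018 for Igf1, −0.42 to 0.16 for Igf2r, −0.34 to 0.71 for Igfbp2 and −0.22 to 0.0086 for Igfbp7. They ranged from −0.29 to 0.050 for Igf1 and −0.042 to 0.37 for Igfbp6 between batches B and A, and from −0.10 to 0.0075 for Igfbp4 between batches C and B. The cause of these changes was not tested. Scaling by total counts shifted the all-gene median (log2) to 0.22 without the batch term and between batches C and B, and the share of calls that were higher from 31.1 to 44.8% for age with batch in the model, from 51.9 to 86.8% without it, from 51.9 to 66.4% between batches B and A and from 49.6 to 62.9% between batches C and B. Same-numbered libraries of different groups had correlations of −0.111 to 0.135 in their deviations from group means. With 2 libraries in a group of batch B these deviations mirror each other, so that the values cannot decide whether the numbers mark a pairing. The labels give only a number, and the replicate block is given as an alternative only. Depth did not limit the 9 genes, but with 2 libraries per age in batch B the age differences rest on few libraries.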
